A study of Mus musculus with 6 samples.

Results

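The 9 genes described here encode transcription factors that pattern the cranial neural crest mesenchyme of the jaws: Gsc, Barx1, Lhx6, Pitx1, Prrx1, Prrx2, Hand2, Twist1 and Tfap2a. They were found by gene symbol among the 25899 rows of the deposited expression table, and all 9 were present. Gsc was chosen by its p-value in the comparison of mutant with control, the fourth lowest of 14444 genes, so its difference there is a description and no test of it is given. The other 8 were named with it as jaw patterning factors when results of these data were already known. Tissue came from the root end of the first molars of the lower jaw in mice of a mixed C57Bl6/129S6/SvEvTac background at postnatal day 7.5. The 3 mutants carried Gli1-CreER with floxed Bmpr1a (Bmpr1afl/fl), and the 3 controls were littermates with the same floxed alleles and no driver in their label. Gli1-CreER is a recombinase made in Gli1-expressing cells and active only after tamoxifen, and the labels give neither the schedule nor whether controls received the drug. Controls 1 and 2 were littermates of mutants 1 and 2 (litter 1). Control 3 and mutant 3 came from litter 2, where each genotype therefore rests on 1 library. The labels do not say whether a sample held 1 animal or several.

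Cranial neural crest cells leave the dorsal neural tube, fill the facial prominences and form the dental mesenchyme, while the enamel organ comes from the oral epithelium. In the mandibular arch, endothelin and BMP signals set domains along the jaw through Dlx, Hand and Msx factors, and FGF signals from the oral epithelium switch on Barx1, Lhx6 and Pitx1 in the tooth-forming side. Gsc, a paired-type homeodomain repressor of the gastrula organizer, is needed later for the shape of the jaw and middle ear. Prrx1 and Prrx2 are homeodomain factors of limb and facial mesenchyme, Twist1 and Hand2 are basic helix-loop-helix factors that bind E-boxes, and Tfap2a (AP-2 alpha) acts in neural crest induction and in surface ectoderm.

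The sequence just upstream of the first exon is shown for Gsc and Twist1, whose control and mutant libraries did not overlap, and for Lhx6, the member besides Gsc with an unadjusted p-value under 0.05. The stretches are from RefSeq promoter windows of assembly GRCm38.p6, trimmed to bases outside every exon of the gene in GENCODE M21. The Gsc stretch covers chr12:104473331-104473486 on the minus strand, the Twist1 stretch chr12:33957421-33957670 on the plus strand and the Lhx6 stretch chr2:36105409-36105658 on the minus strand. The genes themselves lie at chr12:104471209-104473330 (Gsc, 3 merged exons), chr12:33957671-33959829 (Twist1, 2 merged exons) and chr2:36081953-36105408 (Lhx6, 12 merged exons) in GRCm38. Capitals mark matches, on either strand, to an E-box (CANNTG) or to TATAAA.
Gsc: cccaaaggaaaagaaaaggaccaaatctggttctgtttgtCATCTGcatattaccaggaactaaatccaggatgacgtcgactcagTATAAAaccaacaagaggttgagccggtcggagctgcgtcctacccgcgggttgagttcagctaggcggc
Twist1: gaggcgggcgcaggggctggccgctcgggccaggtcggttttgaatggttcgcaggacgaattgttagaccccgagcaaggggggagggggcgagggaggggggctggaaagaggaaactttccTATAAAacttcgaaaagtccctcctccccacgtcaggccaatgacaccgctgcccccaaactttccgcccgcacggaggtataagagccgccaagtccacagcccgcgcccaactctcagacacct
Lhx6: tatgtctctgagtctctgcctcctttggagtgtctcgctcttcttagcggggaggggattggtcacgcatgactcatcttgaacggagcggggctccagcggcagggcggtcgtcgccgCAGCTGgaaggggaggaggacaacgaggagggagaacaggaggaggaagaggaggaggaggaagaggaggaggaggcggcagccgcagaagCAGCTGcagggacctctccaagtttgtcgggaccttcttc
The Gsc stretch holds 1 E-box and 1 TATAAA, the Twist1 stretch 1 TATAAA and no E-box, and the Lhx6 stretch 2 E-boxes, both CAGCTG, and no TATAAA. Lhx6 has another window outside its exons, at chr2:36104061-36104310, which is not shown and holds no E-box and no TATAAA. An E-box is found in 50.6% of the 32851 windows of all genes cut to 156 bases, the length of the Gsc stretch, and in 66.2% of those cut to 250 bases. TATAAA is found in 7.52% and 12.4% of them. None of the 3 stretches holds TAATCC (the site preferred by the homeodomains of Gsc and Pitx1; 4.10% and 6.25% of windows), TAATTA (3.38% and 4.84%), the AP-2 motif GCCNNNGGC (7.81% and 13.7%) or GGCGCC, a GC element read by BMP-activated SMADs (5.15% and 9.59%). These are matches of letters and not sites shown to be bound. Windows were found for 8 of the 9 genes, Pitx1 being the one without.

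Levels are given in RPM, reads of a gene per 1000000 reads of the library, recovered from the deposited log2 values. The libraries held between 15916045 and 20609420 reads on genes. Values with ± are means with the SD over the 3 libraries of a genotype unless stated. The targeted receptor gene Bmpr1a averaged 136 ± 14.4 RPM among controls and 113 ± 6.51 RPM among mutants, a whole-gene level that does not isolate any deleted exon. Gli1, whose locus drives the recombinase, averaged 43.0 ± 18.0 and 25.0 ± 4.69 RPM. Neither gene's groups overlapped. The mesenchyme markers Vim, Pdgfra, Col1a1, Col1a2, Col3a1 and Thy1 were present in every library, and the 7 skeletal muscle markers summed to 1.13 to 2.10 RPM. All 14 markers of enamel and other dental epithelium were also detected in all 6 libraries, summing to between 2415 and 40236 RPM across the controls and between 5804 and 51009 RPM in mutants, with control 2 lowest and mutant 1 highest. Odontoblast and pulp markers summed to 16167 to 27520 RPM across the controls and 5349 to 37134 RPM in mutants, mutant 3 being lowest. Most of that sum was Col1a1, also a mesenchyme marker, at 14403 RPM in control 3 and 4871 RPM in mutant 3. Dspp was at 817 and 113 RPM in these litter 2 libraries and at 4032 to 6872 RPM in litter 1. Phex was at 113 and 18.2 RPM against 387 to 725 RPM, while Dmp1 and Smpd3 were highest in control 3. In bulk tissue, fewer cells of a type and less RNA per cell cannot be told apart.

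Per length of merged exons, Barx1 was by far the highest of the 9 genes and Hand2 the lowest. Barx1, a homeodomain factor of the molar-forming field, was at 295 ± 72.3 RPM per kb (SD over 6 libraries), above all the others in 6 of 6 libraries. Prrx2 (38.2 ± 9.80), Twist1 (34.5 ± 6.43) and Pitx1 (26.6 ± 14.2 RPM per kb) came next. Neighbours in this trio did not differ beyond their spread: Prrx2 was above Twist1 in 4 of 6 libraries, and Twist1 above Pitx1 in 4 of 6. Lhx6 (7.18 ± 1.91), Gsc (4.85 ± 2.25) and Prrx1 (4.45 ± 1.18 RPM per kb) formed a lower trio, in which Lhx6 was above Gsc in 6 of 6 libraries and Gsc above Prrx1 in 4 of 6. Tfap2a was at 1.13 ± 0.701 RPM per kb. The lengths, from 1268 bases for Gsc to 11066 for Prrx1, join the exons of every annotated transcript, so a gene with long but little-used exons is understated.

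**Figure D1:**
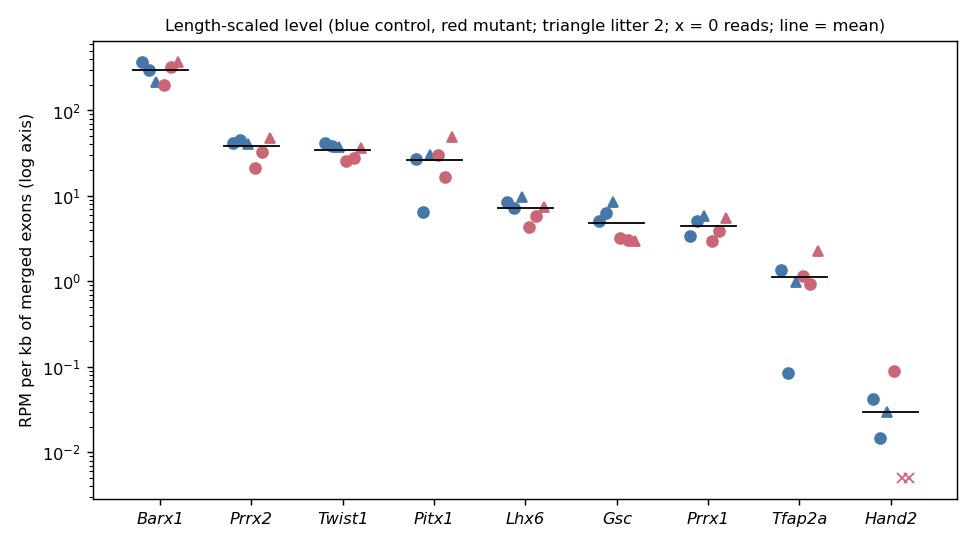
Level per kb of merged exons of the 9 factors in each library, on a log axis; blue points are controls, red points mutants, triangles litter 2, crosses libraries with 0 reads, and lines the mean of 6 libraries. Barx1 sits at 200 to 367 RPM per kb, above every point of the other 8 genes, and Hand2 below 0.1.

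Hand2, a marker of the distal midline of the mandibular arch, was near the limit of detection. It had 3, 1 and 2 reads in controls 1, 2 and 3 and 6, 0 and 0 reads in mutants 1, 2 and 3. All but mutant 1 were at or below 3 reads, the smallest number treated as detectable, which equals 0.0987 to 0.126 RPM depending on the library. With a mean of 0.0696 RPM it did not reach the 1 RPM needed for testing, and no fold is given. Its exons overlap those of the antisense gene Hand2os1, so the few reads cannot be assigned to it with certainty. Its relative Hand1 had 0 reads in all 6 libraries, which allows at most 0.0987 to 0.126 RPM (3 reads, counting error only).

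Gsc was lower in every mutant library than in every control library. Controls 1, 2 and 3 held 6.42, 7.90 and 10.9 RPM of Gsc, and mutants 1, 2 and 3 held 4.05, 3.83 and 3.81 RPM. The mutant mean of 3.90 ± 0.133 RPM was 46.4% of the control mean of 8.40 ± 2.27 RPM, a difference of -0.91 (SE 0.22) on the log2(RPM + 1) scale. The difference was -0.72 within litter 1 and -1.30 within litter 2. The genes next to Gsc in the order of p-values were Eya4 above it (difference -0.96) and C1s below it (-0.59).

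These Gsc levels rested on 195, 226 and 308 reads in controls 1, 2 and 3 and on 114, 115 and 91 reads in mutants 1, 2 and 3. Reads of that number give a counting SD of 0.539 RPM in controls and 0.379 RPM in mutants. All 8 bone markers were detected, and their mean log2 level was also lower on average in mutants, at 7.12 ± 0.811 in controls and 6.22 ± 0.846 in mutants. Summed, they ran from 1418 to 2581 RPM across the controls and from 557 to 2720 RPM among mutants, so those groups overlapped. The markers did not move alike. Spp1 was at 4.54, 96.1 and 159 RPM across the controls and 3.36 to 5.20 RPM in mutants. Bglap, Bglap2 and Phex were highest in mutant 1, at 831, 509 and 725 RPM. Dmp1 and Phex are also among the odontoblast and pulp markers. Over the 6 libraries Gsc and the bone level had r = 0.71 and rho = 0.83, with r = 0.42 without the 2 libraries farthest from the bone median (control 3 and mutant 3, which are litter 2), given as a description because Gsc was chosen on these values. The part of bone cells in the Gsc result was not tested. As a ratio within each library, Gsc to Lhx6 was 0.157 to 0.233 in controls and 0.106 to 0.196 in mutants, and Gsc to Twist1 was 0.0936 to 0.181 and 0.0635 to 0.0978, with overlap in both. Gsc to Prrx1 was 0.140 to 0.169 in controls and 0.0625 to 0.124 in mutants, without overlap. The ratios use the same Gsc values as the choice of the gene and add no support to its difference.

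**Figure D2:**
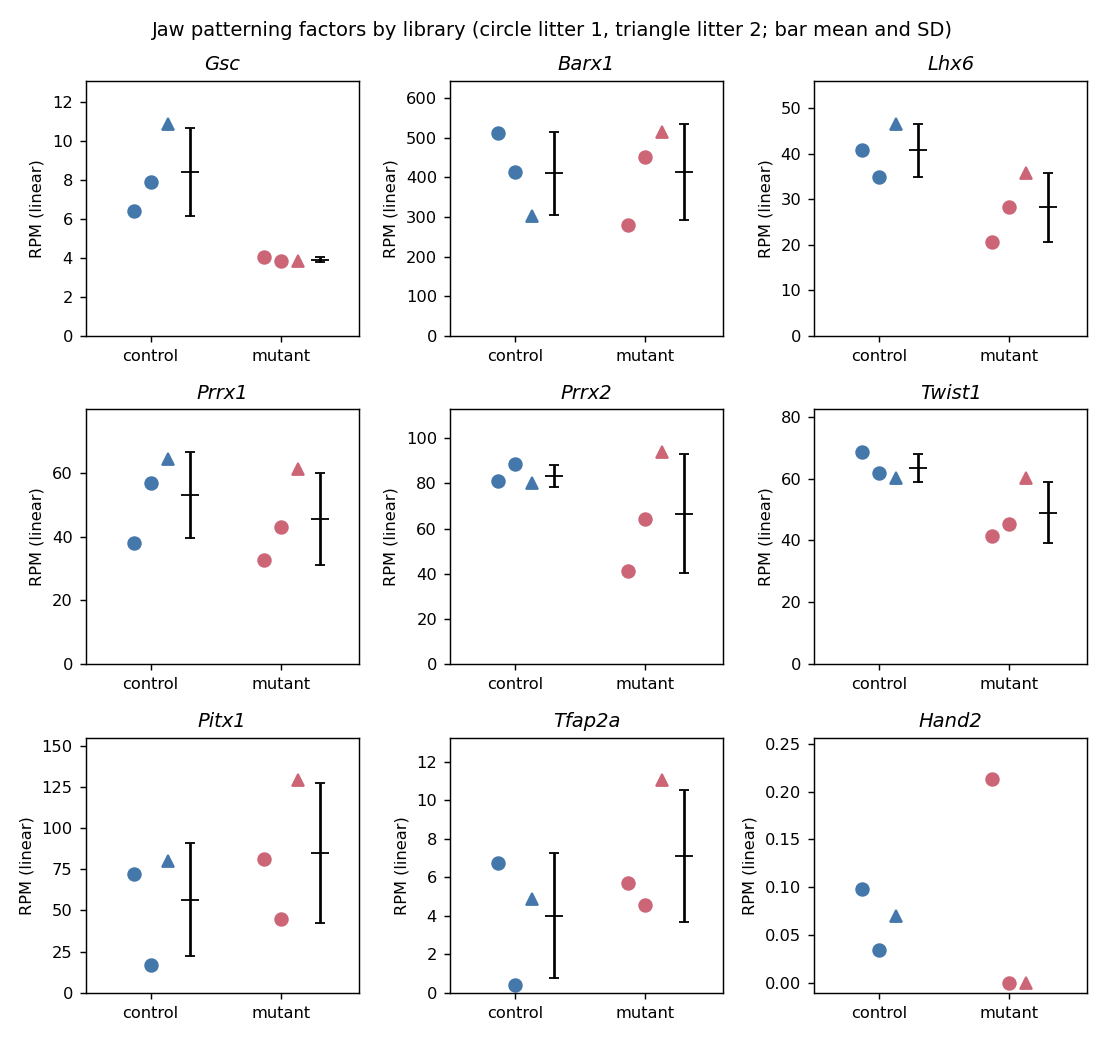
RPM of each of the 9 factors in each library on linear axes; circles are litter 1, triangles litter 2, and black bars the mean and SD of 3 libraries, left out for Hand2, which had 0 to 6 reads. All 3 Gsc mutants sit between 3.81 and 4.05 RPM, below every control, while most other panels overlap.

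Lhx6 and Twist1, mesenchymal factors, were also lower on average in mutants, by less than Gsc. Lhx6, a LIM-homeodomain factor of the tooth-bearing oral mesenchyme, was at 40.8, 34.9 and 46.6 RPM across the controls and 20.6, 28.2 and 35.8 RPM in mutants, so mutant 3 exceeded control 2. Its difference was -0.54 (SE 0.22, limma unadjusted p 0.0431), -0.62 within litter 1 and -0.37 within litter 2. Twist1, which maintains undifferentiated mesenchyme, was at 68.6, 61.8 and 60.06 RPM across the controls and 41.4, 45.4 and 60.01 RPM in mutants. The Twist1 groups did not overlap, but only by 0.05 RPM between control 3 and mutant 3, which are littermates, and that gap is far below the counting SD of 1.48 RPM in controls. Its difference was -0.38 (SE 0.17, limma unadjusted p 0.0533), -0.58 within litter 1 and -0.0013 within litter 2. With litter as a block the unadjusted p of limma was 0.0136 for Lhx6 and 0.0441 for Twist1. Neither gene passed Benjamini-Hochberg adjustment over all 14444 tested genes (limma adjusted p 1.00 for each).

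Across all tested genes, 1.05% had an unadjusted p under 0.05 by limma, 0.692% with mutants lower and 0.36% with mutants higher. None passed Benjamini-Hochberg adjustment. The groups did not overlap in 2.64% of tested genes, 1.67% with mutants lower and 0.976% with mutants higher. Of the 7 tested factors other than Gsc, 1 (Lhx6) met the first rule and 1 (Twist1) the second. The choice of Gsc used this contrast, so it is not counted in either.

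Prrx1 and Prrx2, which act in overlapping ways in the face, showed no difference beyond the spread of the libraries. Prrx2 was at 80.9, 88.7 and 80.2 RPM across the controls and 41.4, 64.4 and 93.9 RPM in mutants, where it spanned values both below and above all controls. Its difference was -0.39 (SE 0.28, limma unadjusted p 0.196), -0.70 within litter 1 and 0.23 within litter 2. Prrx1 was at 37.9, 56.6 and 64.2 RPM across the controls and 32.6, 43.1 and 61.0 RPM in mutants. Its difference was -0.22 (SE 0.28, limma unadjusted p 0.443), -0.30 within litter 1 and -0.07 within litter 2. In both genes the difference was further below 0 within litter 1 than within litter 2.

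Barx1 had nearly the same mean in both groups, 410.2 ± 104 and 414 ± 121 RPM, and a wide spread in each. It was at 512, 415 and 304 RPM across the controls and 279, 450 and 514 RPM in mutants. The difference was 0.00 (SE 0.30, limma unadjusted p 0.998), made up of -0.38 within litter 1 and 0.76 within litter 2. With 7858 to 15556 reads per library the counting SD, which covers counting error only, was 3.75 RPM in controls and 3.93 RPM in mutants.

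Mutant 1 was the lowest library for 5 of the 8 tested factors: Barx1, Lhx6, Prrx1, Prrx2 and Twist1. In that library the collagen and enamel genes Col1a1, Col1a2, Col3a1, Amelx, Ambn and Enam took 9.11% of the total that RPM is scaled to, against 2.94% to 6.12% in the other 5. Mutant 1 also had the lowest median-of-ratios factor, a typical level over genes with reads in all libraries, at 0.910 against 0.933 to 1.06 elsewhere. After median-of-ratios scaling mutant 1 was lowest for 3 of the 8. The share of all tested genes that were lowest in mutant 1 was not counted, so 5 of 8 is not given as a trait of these factors. Without mutant 1 the differences were -0.34 for Lhx6, -0.28 for Twist1, -0.09 for Prrx2 and -0.01 for Prrx1 (limma unadjusted p 0.118, 0.143, 0.631 and 0.966), and -0.94 for Gsc. The part of the matrix reads in the lower values of mutant 1 was not tested beyond this scaling.

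**Figure D3:**
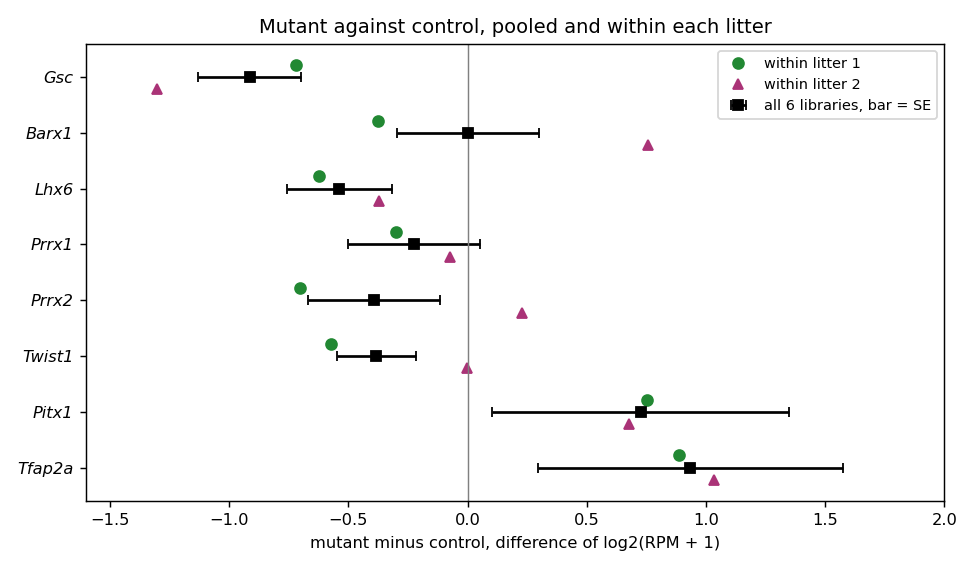
Difference of mutant from control, as log2(RPM + 1), for the 8 tested factors; black squares are all 6 libraries with their SE, green circles litter 1 and purple triangles litter 2. Gsc is the factor furthest below 0, at -0.72 and -1.30 in the separate litters, while Barx1 and Prrx2 lie on opposite sides of 0 in the separate litters.

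Pitx1 and Tfap2a varied most between libraries and varied together. Pitx1, a bicoid-type homeodomain factor of the lower jaw and of oral epithelium, was at 72.2, 17.1 and 80.3 RPM across the controls and 81.0, 44.7 and 129 RPM in mutants, a 7.53-fold range. Tfap2a was at 6.71, 0.420 and 4.87 RPM across the controls and 5.72, 4.56 and 11.0 RPM in mutants, a 26.3-fold range that started from 12 reads in control 2. In both genes control 2 was lowest, mutant 3 highest and the groups overlapped. Their Pearson r over the 6 libraries was 0.96 (Spearman rho 0.83), given as a description of libraries that share depth and dissection. The Pitx1 difference between mutant and control was 0.73 (SE 0.62, limma unadjusted p 0.282), and that of Tfap2a was 0.93 (SE 0.64, limma unadjusted p 0.186). Within litters 1 and 2 it was 0.75 and 0.68 for Pitx1 and 0.89 and 1.03 for Tfap2a. Over the pooled libraries it was 0.03 for Pitx1 and 0.19 for Tfap2a without control 2, and 0.36 and 0.61 without mutant 3.

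Of the 14 epithelial markers, 6 were also lowest in control 2 and highest in mutant 3 (Krt5, Krt14, Krt17, Epcam, Cdh1 and Trp63), against 6.4% of all tested genes. The other 8 did not have that order: the enamel matrix genes Amelx, Ambn and Enam were highest in mutant 1, and the enamel proteases Klk4 (4.02 RPM) and Mmp20 (37.0 RPM) were lowest in mutant 3. The part of the epithelium in the levels of Pitx1 and Tfap2a was not tested beyond the values that follow. The basal keratin Krt5 was lowest in control 2 at 95.4 RPM and highest in mutant 3 at 2076 RPM. Trp63, a factor of stratified epithelium, ran from 20.0 to 221 RPM and the adhesion molecule Epcam from 3.53 to 59.4 RPM between those libraries. The mean log2 level of the 14 epithelial markers was 7.16 ± 1.64 in controls and 8.11 ± 1.36 in mutants. Over the 6 libraries it related to Pitx1 with r = 0.81 and rho = 0.83 (exact permutation p 0.0389 and 0.0583, n = 6), and r was 0.71 without the 2 libraries farthest from its median. For Tfap2a r was 0.67 and rho 0.54 (exact permutation p 0.131 and 0.297, n = 6), with r = 0.26 without those 2 libraries. None of the 80 relations between 8 factors and 10 marker lists passed adjustment (smallest Benjamini-Hochberg adjusted exact permutation p 0.444, for Pitx1 with the macrophage and osteoclast list, r = -0.88, n = 6). Within the 4 libraries of litter 1, r was 0.81 for Pitx1 and 0.67 for Tfap2a with the epithelial level and -0.88 for Pitx1 with the macrophage list, given with no test, and litter 2 has only 2 libraries. With the epithelial level as a covariate the mutant difference was 0.23 for Pitx1 and 0.55 for Tfap2a (limma unadjusted p 0.634 and 0.385). In the same fit it was -0.56 for Lhx6 and -0.36 for Twist1 (limma unadjusted p 0.0586 and 0.0855). For Gsc it was -1.002, given as a description.

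**Figure D4:**
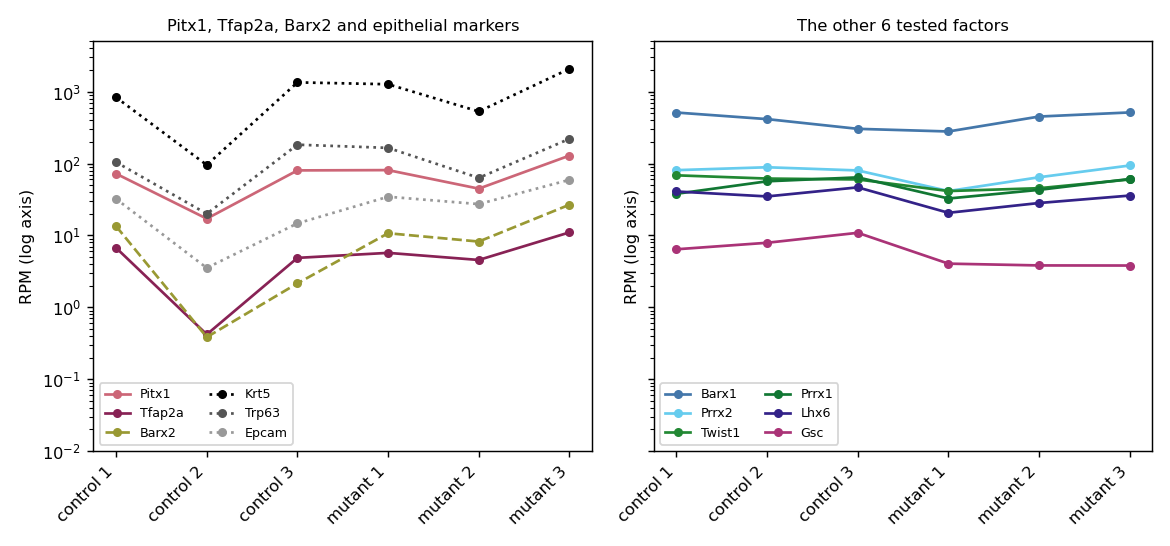
RPM on a log axis in each library, joined by lines only to guide the eye; the left panel holds Pitx1, Tfap2a, the relative Barx2 and Krt5, Trp63 and Epcam, 3 of the 6 epithelial markers picked for sharing the extremes of Pitx1, and the right panel the other 6 tested factors. All genes of the left panel, the markers by choice, are lowest in control 2 and highest in mutant 3, an order that no gene of the right panel has.

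The closest relatives of the 9 factors did not all take the direction of the factor they resemble. Barx2, which is close to Barx1 in sequence, ran from 0.385 RPM in control 2 to 26.7 RPM in mutant 3, a mutant difference of 1.86 (SE 0.84, limma unadjusted p 0.0608) against 0.00 for Barx1. The Barx2 difference was 1.10 without control 2 and 2.79 without control 1 (limma unadjusted p 0.155 and 0.00221). Lhx8, which acts with Lhx6 in the molar field, was at 19.3, 19.5 and 22.6 RPM across the controls and 13.4, 14.6 and 16.0 RPM in mutants, all below the controls (difference -0.46, SE 0.15, limma unadjusted p 0.018). The Lhx6 to Lhx8 ratio was 1.99 ± 0.178 in controls and 1.91 ± 0.350 in mutants. It ran from 1.79 to 2.12 across the controls and from 1.54 to 2.24 in mutants, and a change in it was not tested. Twist2, at 101 ± 16.4 and 80.3 ± 46.3 RPM, and Tfap2b, at 8.61 ± 2.40 and 5.96 ± 1.95 RPM, were not under 0.05 (limma unadjusted p 0.258 and 0.142), and the Tfap2b difference of -0.47 was opposite in sign to that of Tfap2a. Twist2 was at -1.01 within litter 1 and 0.60 within litter 2 (interaction 1.61, SE 0.45, limma unadjusted p 0.011, adjusted p 0.75), and at -0.083 without mutant 1 and -0.90 without mutant 3 (limma unadjusted p 0.799 and 0.0106). Tfap2b was at -0.69 without control 2 and -0.30 without mutant 2 (limma unadjusted p 0.0444 and 0.37). Tfap2c stayed between 0.28 and 2.89 RPM, and Gsc2, Pitx3, Hand1 and Tfap2e had at most 3 reads in any library.

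Other jaw network genes were read from lists of signals, facial factors, neural crest factors and cofactors. Of 60 listed genes that were tested, 39 were lower and 21 higher in mutants, and 4 had an unadjusted p under 0.05 by limma, all lower, against 0.692% of all tested genes that were lower by that rule. A difference below 0 was found in 54.4% of all tested genes. None passed adjustment. Their median difference was -0.11, against -0.01 over all 14444 genes. Of the 6 tested relatives 3 were higher and 3 lower, with Lhx8 under 0.05.

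Among the 15 signals and their readers, 6 were higher and 9 lower, with a median difference of -0.07. Mef2c, which acts downstream of the endothelin receptor in the arches, was the only one under an unadjusted p of 0.05, at 47.0 ± 8.88 RPM across the controls and 34.0 ± 5.64 RPM in mutants (-0.45, SE 0.19, limma unadjusted p 0.049). With litter as a block its limma unadjusted p was 0.0522, and it was under 0.05 in 7 of 18 alternatives. The receptor itself, Ednra, was at 29.4 to 68.7 RPM across the controls and 31.6 to 55.9 RPM in mutants. Dlx5 and Dlx6, which act between the receptor and Hand2, were well detected at 63.9 to 103 RPM and 35.3 to 43.9 RPM. Hand2 was near 0 in libraries where Ednra, Dlx5 and Dlx6 were not.

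Among the 21 tested facial factors 17 were lower and 4 higher, with a median of -0.23. Foxf2, a forkhead factor of oral mesenchyme, was at 73.2, 62.3 and 75.6 RPM across the controls and 29.2, 28.6 and 65.5 RPM in mutants (-0.87, SE 0.31, limma unadjusted p 0.027). Mutants 1 and 2 lay far below all controls and mutant 3 above control 2. Among facial factors below the testing limit, Alx1 had 0 reads, and Foxd1, Meis2, Gbx2 and Isl1 were at most at 0.742 RPM in any library. Alx1 and Isl1 are known from the frontonasal and incisor-forming regions. Of 7 tested neural crest factors 3 were higher and 4 lower (median -0.28), and of 12 partners and cofactors 5 were higher and 7 lower (median -0.05), with none under 0.05 in either list.

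**Figure D5:**
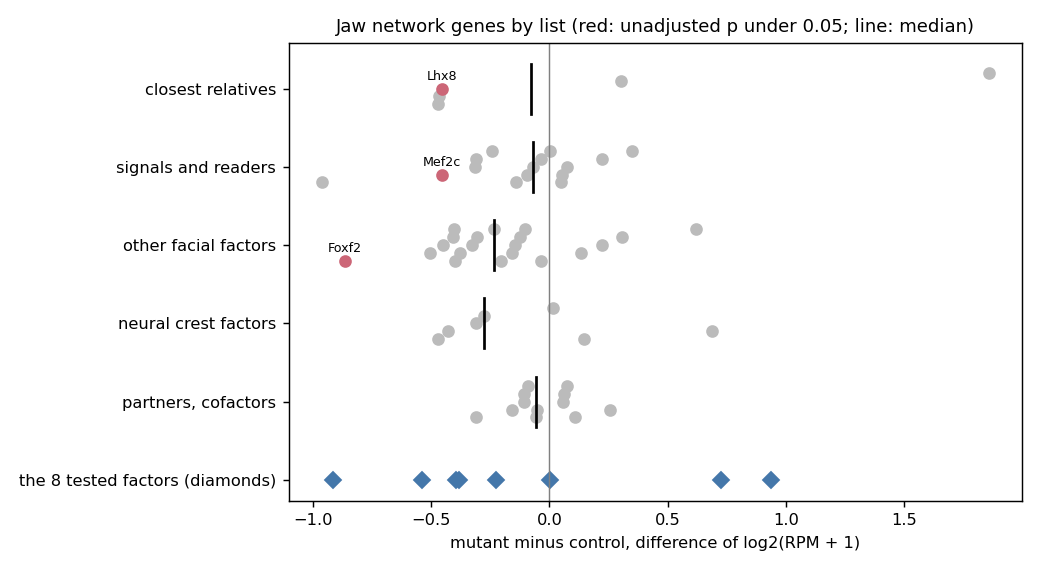
Difference of mutant from control, as log2(RPM + 1), for each tested gene of 5 lists and for the 8 tested factors; red circles have an unadjusted limma p under 0.05, and black lines mark each list's median. The labelled red genes Lhx8, Mef2c and Foxf2 lie at -0.46, -0.45 and -0.87, 2 tested genes are counted in the medians but not drawn, and none passed adjustment; the factors, chosen with results known, are blue diamonds without such a mark.

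The genes whose pattern over the 6 libraries was most like that of Gsc were Eya4 (Pearson r 0.99), Shisa3 (0.98), Adamts5 (0.97), Shisa2 (0.96) and Hsd11b2 (0.96), out of 14443 genes compared on the log2(RPM + 1) scale. Each was picked as a highest value over 6 libraries, so no test is given. Shisa3 was at 2.63, 4.37 and 7.24 RPM across the controls and 1.63, 1.66 and 1.72 RPM in mutants, highest, like Gsc, in control 3. Adamts5, an aggrecanase, was at 25.0 ± 8.12 and 13.8 ± 2.00 RPM. The best match of the other factors was Jmjd4 for Barx1, Tbxa2r for Lhx6, Tmem28 for Pitx1, Srp54a for Prrx1, Sec1 for Prrx2, Nfatc4 for Twist1 and Wnk2 for Tfap2a, with r from 0.99 to 1.00. Among the factors themselves, Lhx6 and Twist1 had r of 0.89 (rho 0.71), Prrx2 and Twist1 0.87 (rho 0.60), and Lhx6 and Prrx2 0.85 (rho 0.49). Gsc had r of 0.72 with Lhx6 (rho 0.49) and -0.46 with Tfap2a (rho -0.49).

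Litter was not used in choosing the factors, and it was compared next. With genotype in the fit, 20.9% of all tested genes had an unadjusted p under 0.05 between litters and 0.872% passed at 0.05 after adjustment (limma, Benjamini-Hochberg). Of the 8 factors 2 were under an unadjusted 0.05 and none passed adjustment, a share near that background. Prrx1 was higher in litter 2 by 0.57 (SE 0.20, limma unadjusted p 0.0276, adjusted p 0.19), at 62.6 RPM on average against 42.6 RPM. Lhx6 was higher in litter 2 by 0.42 (SE 0.17, limma unadjusted p 0.0443, adjusted p 0.228). Each was under an unadjusted 0.05 in 9 of 13 alternatives by limma. Prrx1 was above it without control 1 or mutant 1 (limma unadjusted p 0.0585 and 0.0578). Lhx6 was above it without control 2 and without the mean-variance trend (limma unadjusted p 0.102 and 0.0573). Both were also above it without control 3 or mutant 3, where litter 2 keeps 1 library. There the differences were 0.69 and 0.46 for Prrx1 and 0.55 and 0.30 for Lhx6. Pitx1 and Tfap2a were higher in litter 2 by 1.12 (SE 0.54) and 0.90 (SE 0.61), and Gsc by 0.26 (SE 0.20), which did not exceed the spread (limma unadjusted p 0.0783, 0.188 and 0.253). Single libraries moved the litter differences of Pitx1 and Tfap2a: without control 1 they were 1.55 and 1.44 (limma unadjusted p 0.00311 and 0.00257), and without control 2 they were 0.68 and 0.39 (0.0654 and 0.291). Without control 3, which leaves litter 2 with mutant 3 alone, the litter differences of Prrx2 and Twist1 were 0.85 and 0.46. None of the factors passed adjustment between litters in any alternative.

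Whether the mutant difference itself changed with litter was tested with an interaction term. Between litters 5.06% of all genes had an unadjusted p under 0.05 for this term and none an adjusted one (limma, Benjamini-Hochberg), and none of the 7 factors other than Gsc was under 0.05. The lowest p-values among them were those of Barx1 at 1.13 (SE 0.50), Prrx2 at 0.93 (SE 0.40) and Twist1 at 0.57 (SE 0.26), with limma unadjusted p-values of 0.0654, 0.0598 and 0.0711 and adjusted p-values of 0.91.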

How the data were processed

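RNA from 3 mutant and 3 control samples was made into poly(A) libraries and read on an Illumina instrument, as the labels' protocols state. TopHat2 and build mm10 are named in the submitters' processing notes; the counting program and annotation are not given in the sources used here. The authors deposited log2 values in a table titled normalized RPKM. Raised as powers of 2, 99.9% to 100% of values above the column minimum were whole multiples (within 0.02) of 1 step per column shared by all genes, which leaves no division by gene length. They were therefore treated as RPM, a denominator inferred from the step, and the minimum, 0.9 of 1 step, as 0 reads. Whether reads were counted by strand is not given, and exons of Lhx6, Pitx1, Tfap2a and Hand2 overlap those of other genes in GENCODE M21.

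Columns were tied to samples by the sample titles in their names. The 14444 genes averaging 1 RPM or more were tested on log2(RPM + 1), which understates the change of low genes, with limma 3.58.1 in R 4.3.3 (lmFit, eBayes with trend, two-sided p, Benjamini-Hochberg over all tested genes). The fit was also run on simulated counts with the same spread for all genes and no litter effect. That run does not cover the differences between litters seen here. The design had been written for linear values per 1000000 reads, and these were obtained from the log2 values. The labels do not say that samples of a group came from separate animals, so p-values measure the spread between these samples. The factors, gene lists and tests were chosen with earlier results of these data known. Genes named are the 9 factors, their listed relatives, up to 6 genes per list with an unadjusted p under 0.05 or non-overlapping groups, and those most like each factor by Pearson r. Ratios, marker relations, motifs, Ednra, Dlx5, Dlx6 and the litter results of other genes were chosen after the values were seen. Alternatives were 2 pseudocounts, 2 filters, 2 scalings, no trend, litter or replicate block, litter 1 alone, an epithelial covariate, limma voom and leaving out each library. Some listed genes are not reported here by name, and counts and medians of lists include them. Figures were drawn with matplotlib 3.10.9.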

Additional observations from a re-analysis of the deposited data

Results flagged for a closer look

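Prrx2 differed in direction between the litters. Both litter 1 mutants (41.4 and 64.4 RPM) lay below both litter 1 controls (80.9 and 88.7 RPM), while the litter 2 mutant (93.9 RPM) lay above its control (80.2 RPM). The difference between litters in the mutant effect was 0.93 on the log2 scale (SE 0.40, limma unadjusted p 0.0598, adjusted p 0.91), so it did not pass the test, and litter 2 has 1 library per genotype. Several other listed genes had the same opposite signs, mutants below all controls in litter 1 and above the control in litter 2. The share of all tested genes with this pattern was not counted. The median difference between litters in the mutant effect was 0.19 over all 14444 genes, of the same sign. Among the listed genes with the pattern it was 1.94 for Shox2 and 1.77 for Bmp2. For Twist2 the difference between litters was 1.61 (SE 0.45, limma unadjusted p 0.011, adjusted p 0.75), for the endothelin receptor gene Ednra 1.49 (SE 0.43, limma unadjusted p 0.0138, adjusted p 0.758) and for Six2 0.89 (SE 0.54, limma unadjusted p 0.149, adjusted p 0.91). None passed Benjamini-Hochberg adjustment.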

How the results depend on the processing

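The count of genes with an unadjusted limma p under 0.05 between mutant and control, reported as 152, was 292 in the litter block, 344 without the filter, 414 given the epithelial covariate, 316 for litter 1 alone and 68 to 319 when single libraries were left out. The number with an adjusted p under 0.05, reported as 0, was 0 to 1 when single libraries were left out and 0 in the other alternatives (limma, Benjamini-Hochberg). The replicate numbers come from the column names; deviations of same-numbered libraries correlated across genes at -0.03, 0.75 and 0.50, so the numbers were not taken as pairs. With the replicate block 524 genes had an unadjusted p under 0.05, among them Lhx6 (0.0183) and Pitx1 (0.0169). The count among the other listed genes, reported as 4, was 11 with the replicate block, 11 in litter 1 alone and 2 to 11 when single libraries were left out. Between litters the 3026 genes under an unadjusted 0.05 ran from 1396 to 4245 when single libraries were left out, and the 126 with an adjusted p under 0.05 became 2 with no filter, 0 with median-of-ratios scaling, 1 with upper-quartile scaling and 0 to 371 when single libraries were left out. The cause of these shifts was not tested.

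The Gsc difference ran from -1.07 to -0.72 over 18 alternatives, a description since Gsc was chosen on this contrast. Lhx6 (-0.72 to -0.34), Twist1 (-0.58 to -0.28), Prrx2 (-0.70 to -0.095), Prrx1 (-0.45 to -0.012), Pitx1 (0.03 to 1.12) and Tfap2a (0.19 to 1.41) kept their sign in 18 of 18, though the size moved widely. Lhx6 was under an unadjusted limma p of 0.05 in 12, Twist1 in 6, Prrx2 in 2 (0.0226 in litter 1 alone and 0.0176 without mutant 3) and Pitx1 in 1, and of the other listed genes Lhx8 was in 16, Foxf2 in 14 and Mef2c in 7 of 18; Lhx8 was above 0.05 without control 3 or mutant 2, and Foxf2 without control 1, control 3, mutant 1 or mutant 2. Barx1 went to -0.38 in litter 1 alone and ran from -0.20 to 0.26 when single libraries were left out, below 0 without control 3, mutant 2 or mutant 3. Tfap2c went to -0.059 in litter 1 alone and ran from -0.050 to 0.72, below 0 without control 2 or mutant 3. Between litters, Barx1 was at 0.015 and 0.0063 under median-of-ratios and upper-quartile scaling, and ranges when single libraries were left out were -0.60 to 0.53 for Barx1, -0.037 to 0.55 for Gsc, -0.079 to 0.85 for Prrx2 -0.11 to 0.46 for Twist1, 0.68 to 1.55 for Pitx1 and 0.39 to 1.44 for Tfap2a. Between mutant and control the 18 alternatives ran from 1.10 to 2.79 for Barx2, with a replicate block p of 0.0243, from -1.01 to -0.083 for Twist2, with a p of 0.0075 in litter 1 alone, and from -0.69 to -0.30 for Tfap2b, with p under 0.05 in the replicate block (0.0375), with the epithelial covariate (0.0426) and without control 2 (limma, unadjusted). Depth limits Hand2 most, where 1 read is worth 0.0329 to 0.0419 RPM.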

Other observations

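Among the 60 other jaw network genes tested, 8 had an unadjusted limma p under 0.05 between litters with genotype in the fit, and none passed adjustment; over all tested genes the share was 20.9%. Msx1, a BMP-responsive homeodomain factor of dental mesenchyme, was at 91.2 and 129 RPM in the litter 2 libraries and at 174 to 305 RPM in the litter 1 libraries, a difference of -1.16 (limma unadjusted p 0.00574, adjusted p 0.113). Fgf10 (-1.09), Tbx3 (-0.52) and Ldb1 (-0.43) were also lower in litter 2, and Fgf9 (1.16), Dlx2 (0.57), Foxf2 (0.66) and Six2 (0.76) higher.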
